A study of Mus musculus with 6 samples.

Results

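The 4 genes of the secretory-stage enamel matrix, Amelx, Ambn, Enam and Mmp20, were found by symbol among 22287 genes of the deposited expected-count table, and all 4 were present in each library and passed the filter on low counts. RNA came from the apical part of lower first molars, where roots form, taken from C57BL/6 pups at postnatal day 7.5. Both groups carried Arid1a fl/fl alleles and received intraperitoneal tamoxifen (1.5 mg per 10 g of weight) at postnatal day 3.5. Control pups had the genotype Arid1a fl/fl and no Cre (3 libraries, replicates 2, 3 and 5). Mutant pups had the genotype Gli1-CreER;Arid1a fl/fl (3 libraries, replicates 3, 4 and 5), in which a tamoxifen-dependent Cre is driven by Gli1, a gene of cells that respond to Hedgehog signals. CreER was present in the mutants alone, so its effects and those of Arid1a deletion cannot be told apart. The labels do not say whether a library held 1 animal or a pool, so a p-value covers only the spread between libraries, which may be technical in part. Levels of Xist, given below, differed within each group, so the libraries of a group were not all repeats of 1 sample.

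Enamel is laid down by ameloblasts, the tall cells of the inner dental epithelium. In the secretory stage these cells release a protein matrix in which thin mineral ribbons grow, and in the maturation stage the matrix is removed and the mineral thickens. Amelx encodes amelogenin, the main protein of this matrix. Ambn encodes ameloblastin, an adhesive matrix protein, and Enam encodes enamelin, a large glycoprotein found at the mineralisation front. Mmp20 encodes enamelysin, the metalloproteinase that cleaves these 3 proteins as they are secreted. Loss-of-function mutations in each of the 4 genes are known causes of defective enamel.

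The members lie at 3 places in the mm10 genome, with positions from GENCODE M21. Amelx (ENSMUSG00000031354) is on chromosome X from 169176114 to 169187200, on the minus strand, with up to 7 exons in a transcript. Ambn (ENSMUSG00000029288) is on chromosome 5 from 88455991 to 88468531 and Enam (ENSMUSG00000029286) on the same chromosome from 88487975 to 88506049, both on the plus strand, with 19443 bases between them. They have up to 11 and up to 10 exons. Mmp20 (ENSMUSG00000018620) is on chromosome 9 from 7628231 to 7674979, on the plus strand, with 10 exons. All are protein-coding.

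The promoters of the members are shown because 3 of the 4 shared a short word at a like distance from the start of transcription, as did those of Amtn, the amelotin gene, which is a neighbour of Ambn, and of Odam, a gene of the same chromosome. Each line is 150 bases that end just before the RefSeq start, on the gene's own strand, from the RefSeq promoter table of build GRCm38.p6. Capitals mark matches on either strand to CCAAT (the box bound by the factor NF-Y), to its longer form CCAATCA, to the homeodomain word TAATTG, to the Runx word TGTGGT and to the TATA box word TATAAA. A match to CCAATCA on the opposite strand reads TGATTGG, and every CCAATCA match holds a CCAAT match.
Amelx, chrX:169187210-169187359, minus strand: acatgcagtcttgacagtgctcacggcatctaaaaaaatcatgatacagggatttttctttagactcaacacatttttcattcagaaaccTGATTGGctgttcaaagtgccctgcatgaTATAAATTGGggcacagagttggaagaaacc
Ambn, chr5:88455841-88455990, plus strand: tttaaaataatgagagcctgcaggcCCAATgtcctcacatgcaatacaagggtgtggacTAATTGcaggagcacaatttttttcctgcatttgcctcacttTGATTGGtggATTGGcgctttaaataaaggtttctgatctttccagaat
Enam, chr5:88487825-88487974, plus strand: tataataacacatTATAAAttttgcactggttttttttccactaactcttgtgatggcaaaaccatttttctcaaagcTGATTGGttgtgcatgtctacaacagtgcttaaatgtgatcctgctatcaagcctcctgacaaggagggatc
Mmp20, chr9:7628081-7628230, plus strand: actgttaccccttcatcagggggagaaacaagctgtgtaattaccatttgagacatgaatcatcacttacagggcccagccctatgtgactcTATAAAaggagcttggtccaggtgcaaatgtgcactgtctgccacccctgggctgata
Amtn, chr5:88375958-88376107, plus strand: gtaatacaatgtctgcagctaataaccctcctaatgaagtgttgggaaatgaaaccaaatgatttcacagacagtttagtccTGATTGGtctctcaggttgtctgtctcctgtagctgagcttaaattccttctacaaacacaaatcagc

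Searched over 250 bases before the start, TGATTGG stood from -60 to -54 in Amelx, from -49 to -43 in Ambn, from -72 to -66 in Enam, from -68 to -62 in Amtn and from -64 to -58 in Odam. A window of the dentin matrix gene Dmp1 held it farther out, from -103 to -97. Another Dmp1 window held ATTGG, from -57 to -53, but not TGATTGG. Amtn, Odam and Dmp1 were not called in either direction, as given with their values among the enamel and dentin genes. Klk4, Acp4 and Dspp were searched as well, with no match to any of the words, and of these Acp4 was called lower. TGATTGG was not among the letters of the Mmp20 window, which held no CCAAT on either strand. Of 32851 RefSeq promoter windows of the same length, 33.8% held CCAAT and 7.23% held CCAATCA on either strand. TAATTG, found in Ambn, was in 7.17% of them, and TGTGGT, found in none of the 4 members, was in 14.0%. TATAAA was in 12.4% of them. It stood from -31 to -26 in Amelx, where it shares a base with a second ATTGG, from -58 to -53 in Mmp20 and from -137 to -132 in Enam. CCAATCA and TATAAA were chosen after the windows had been read, and these matches are a description of letters and not of bound factors.

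The 6 libraries held 20453247 to 24255352 expected counts, and 17305 genes were tested with edgeR's quasi-likelihood test. An adjusted p under 0.05 (Benjamini-Hochberg over all genes tested) was taken as a call. CPM are counts per 1000000 of the library size after scaling by TMM, which sets most genes level between libraries. The mean level of Arid1a was 205 ± 3.96 CPM over the controls and 128 ± 7.36 over the mutants (SD, n = 3), and it was called lower (log2 fold change -0.68, edgeR adjusted p = 0.0129). Leaving out control replicate 2 or 3 ended that call (edgeR adjusted p = 0.0506 and 0.0529). The molar label was matched by Dspp, the dentin matrix gene of odontoblasts, at 8970 ± 530 and 8216 ± 1587 CPM (SD, n = 3), and by Krt14, a keratin gene of dental epithelium, at 727 ± 91.5 and 742 ± 230 CPM.

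All 4 members were lower in every mutant library than in any control library. Amelx and Mmp20 were called lower, while Enam and Ambn did not pass. Genes called lower made up 1.2% of all genes tested, against 0.659% called higher, and genes whose libraries did not overlap between the groups with the mutants lower made up 10.8%. The median log2 fold change of the members was -0.97, against 0.01 over all genes tested.

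Amelx stood at 109351, 119895 and 209047 CPM in control replicates 2, 3 and 5, and at 46247, 62078 and 37117 in mutant replicates 3, 4 and 5. The highest mutant library lay far below the lowest control library, and control replicate 5 stood above the other controls. The means were 146097 ± 54770 and 48481 ± 12630 CPM (SD, n = 3), so that controls were 3.01-fold higher in the fit (log2 fold change -1.59, SE 0.30, edgeR adjusted p = 0.0470). The call did not survive the loss of any library: the adjusted p was 0.0799, 0.119 and 0.0972 without control replicates 2, 3 and 5 and 0.0863, 0.0857 and 0.123 without mutant replicates 3, 4 and 5. In these bulk samples, fewer ameloblasts and less RNA per ameloblast cannot be told apart.

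Ambn stood at 51467, 59983 and 48959 CPM in control replicates 2, 3 and 5 and at 33818, 37712 and 22138 in mutant replicates 3, 4 and 5. The groups did not overlap, and mutant replicate 5 was the lowest library. The means were 53470 ± 5779 and 31223 ± 8105 CPM (SD, n = 3), with a log2 fold change of -0.78 (SE 0.21) that did not pass (edgeR adjusted p = 0.124). Ambn had the smallest difference of the members and was not called in any fit that left out 1 library.

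Enam was the steadiest of the 3 matrix protein genes in controls, at 16102, 17316 and 17572 CPM in replicates 2, 3 and 5. In the mutants it stood at 6825, 11605 and 7471 CPM in replicates 3, 4 and 5, and mutant replicate 4 lay between the other mutants and the controls. The means were 16997 ± 785 and 8634 ± 2594 CPM (SD, n = 3), and the difference did not pass (log2 fold change -0.98, SE 0.20, edgeR adjusted p = 0.0645). Without mutant replicate 4 it was called (log2 fold change -1.25, adjusted p = 0.0246).

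Mmp20, the protease gene, stood at 678, 746 and 836 CPM in control replicates 2, 3 and 5 and at 338, 446 and 370 in mutant replicates 3, 4 and 5. No other member had a smaller SE or adjusted p. The means were 753 ± 79.0 and 385 ± 55.4 CPM (SD, n = 3), and the gene was called lower (log2 fold change -0.97, SE 0.13, edgeR adjusted p = 0.0205). Leaving out control replicate 2, 3 or 5 ended the call (adjusted p = 0.0532, 0.0765 and 0.0754), as did leaving out mutant replicate 5 (0.0585), and it was kept without mutant replicate 3 (0.0371) or mutant replicate 4 (0.0274).

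**Figure D1:**
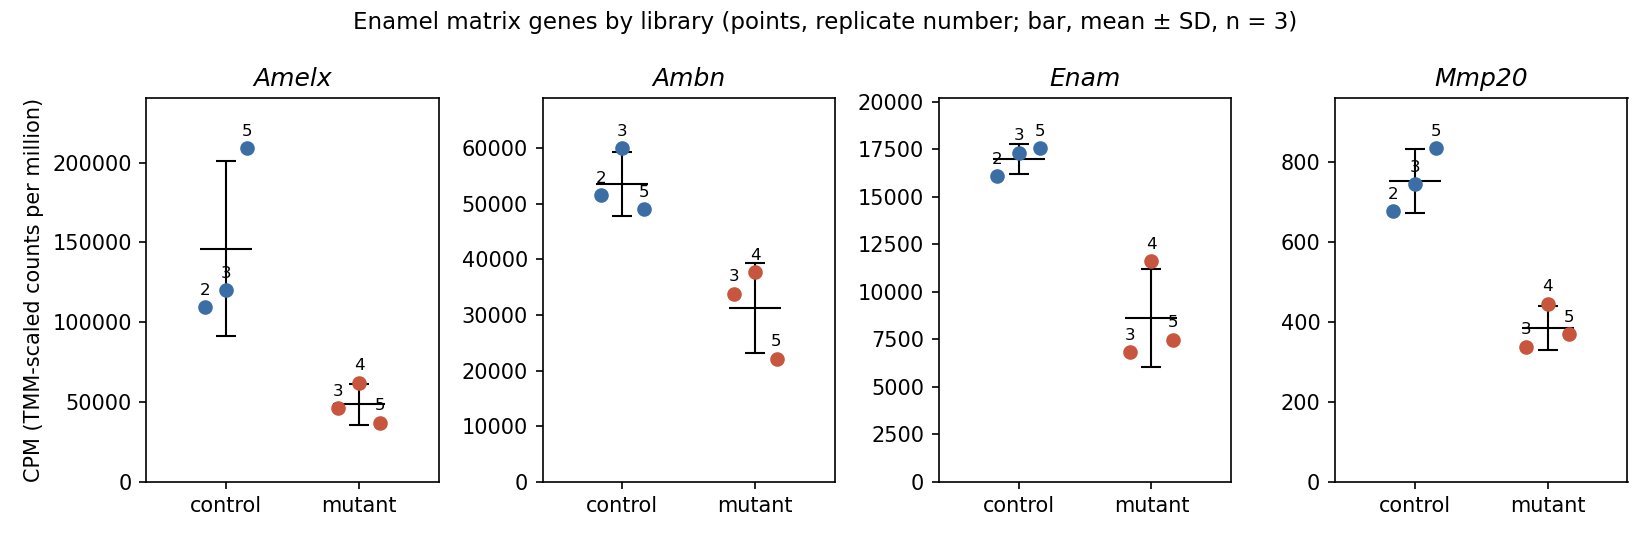
TMM-scaled CPM (linear axes from 0) of the 4 genes in each library, with the replicate number beside each point and bars for the mean ± SD of 3 libraries. In each panel all mutant points lie below all control points, and Amelx in control replicate 5 (209047 CPM) stands above the other controls.

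As a share of all gene counts, which uses no scaling factor, the 4 genes made up a large part of each library. They took 17.3%, 18.8% and 24.1% of the counts in control replicates 2, 3 and 5, and 9.31%, 11.6% and 7.47% in mutant replicates 3, 4 and 5. The means were 20.1% ± 3.56 and 9.46% ± 2.07 (SD, n = 3), a difference of -10.60 percentage points (exact two-sided permutation p = 0.1, the smallest that 3 against 3 libraries allow). Counting error was small beside this spread, with 95% Wilson intervals of at most 0.0183 percentage points on either side of a summed share. Such intervals cover counting error only.

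Amelx alone took 10.7%, 11.4% and 18.2% of counts in control replicates 2, 3 and 5 and 4.93%, 6.44% and 4.13% in mutant replicates 3, 4 and 5. It ranked first by count among all genes in 5 of the 6 libraries. In mutant replicate 5 it was second to Col1a1, the collagen gene of dentin and bone, which took 4.43%. Ambn took 5.02%, 5.69% and 4.27% in the controls and 3.61%, 3.91% and 2.47% in the mutants, in the same order of replicates. Enam took 1.57%, 1.64% and 1.53% in the controls and 0.728%, 1.20% and 0.832% in the mutants. Its rank by count was 5 in each control and 7 to 9 in the mutants. Mmp20 took 0.0662%, 0.0707% and 0.0728% in the controls and 0.0361%, 0.0463% and 0.0412% in the mutants, and its rank went from 64 to 86 in controls and from 157 to 250 in mutants. For each member the groups did not overlap in share (exact two-sided permutation p = 0.1 for each). How many of all genes did the same in share was not counted.

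**Figure D2:**
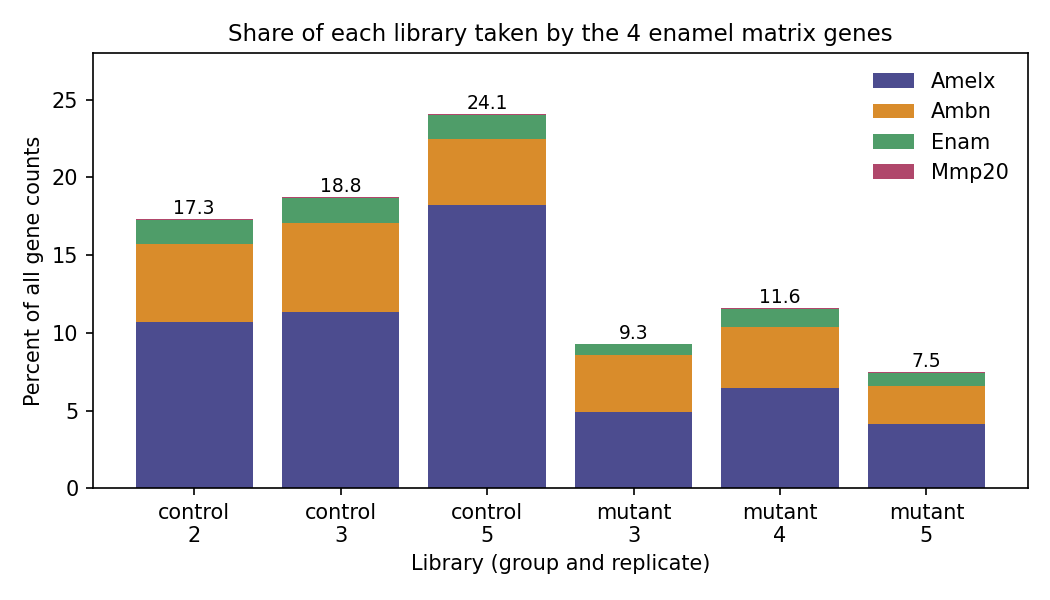
Percent of all gene counts taken by Amelx, Ambn, Enam and Mmp20 in each library, stacked from 0, with the sum above each bar. The sums were 17.3 to 24.1% in controls and 7.47 to 11.6% in mutants, and Amelx was the largest part of each bar.

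The share of these genes bears on how other genes are scaled. When libraries were scaled to their totals and nothing else, the log2 fold changes of all genes had a median of 0.21, and 79.0% of 520 called genes were higher in the mutants, against 35.4% of 322 with TMM. With totals that leave out the 4 members and no TMM factor, a setting chosen after the data were seen, the median was 0.03 and 38.4% of 305 called genes were higher. Leaving the members out of the TMM calculation changed little, with 320 called genes of which 35.0% were higher. On library totals alone, where all values should be read against the shift of 0.21, the log2 fold changes of Amelx, Ambn, Enam and Mmp20 were -1.38, -0.58, -0.78 and -0.76.

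Levels of different genes can be compared only per length, so counts were also divided by the exonic bases of each gene (999 for Amelx, 1919 for Ambn, 5490 for Enam and 3287 for Mmp20) and set to the same total in each library (TPM). In controls Amelx stood at 295308 ± 72071 TPM, Ambn at 58150 ± 10772, Enam at 6418 ± 546 and Mmp20 at 473 ± 13.1 (SD, n = 3). In mutants the TPM were 127722 ± 24702, 42817 ± 8624, 4145 ± 1012 and 310 ± 34.3. The order Amelx, Ambn, Enam, Mmp20 was the same in every library, and no neighbours in it overlapped within a group. TPM of all genes share 1 total, so the high TPM of Amelx lowers those of the others, and for this reason TPM were not compared between the groups.

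Ratios of counts within a library are free of scaling and were used to ask whether the 4 genes moved by the same factor. The Amelx to Ambn count ratio was 2.12, 1.999 and 4.27 in control replicates 2, 3 and 5 and 1.37, 1.65 and 1.68 in mutant replicates 3, 4 and 5. Every mutant ratio lay below every control ratio (log2 difference -0.75, exact two-sided permutation p = 0.1, adjusted p = 0.2 over 6 pairs). The Amelx to Enam ratio was 6.79, 6.92 and 11.9 in the controls and 6.78, 5.35 and 4.97 in the mutants, so that mutant replicate 3 lay just below control replicate 2 (log2 difference -0.55, the same p-values). The Amelx to Mmp20 ratio was 161, 161 and 250.2 in the controls and 137, 139 and 100.3 in the mutants (log2 difference -0.59, the same p-values). The exact permutation test cannot give a smaller p with 3 against 3 libraries, so none of the 6 pairs could pass. Without control replicate 5, in which Amelx was high, the log2 differences of Amelx to Ambn, Enam and Mmp20 were -0.40, -0.28 and -0.38.

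Among the other 3 members the ratios differed less, and in each case the groups overlapped. The Enam to Mmp20 count ratio was 23.7, 23.2 and 21.03 in control replicates 2, 3 and 5 and 20.2, 26.0 and 20.2 in mutant replicates 3, 4 and 5 (log2 difference -0.04, exact two-sided permutation p = 0.8, adjusted p = 0.8). The Ambn to Enam ratio was 3.20, 3.46 and 2.79 in the controls and 4.96, 3.25 and 2.96 in the mutants, with mutant replicate 3 above all others (log2 difference 0.21, exact p = 0.6, adjusted p = 0.72). The log2 difference of Ambn to Mmp20 was 0.17 (exact p = 0.5, adjusted p = 0.72). Across libraries, mutant replicate 4 was the highest mutant for each of the 4 genes.

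**Figure D3:**
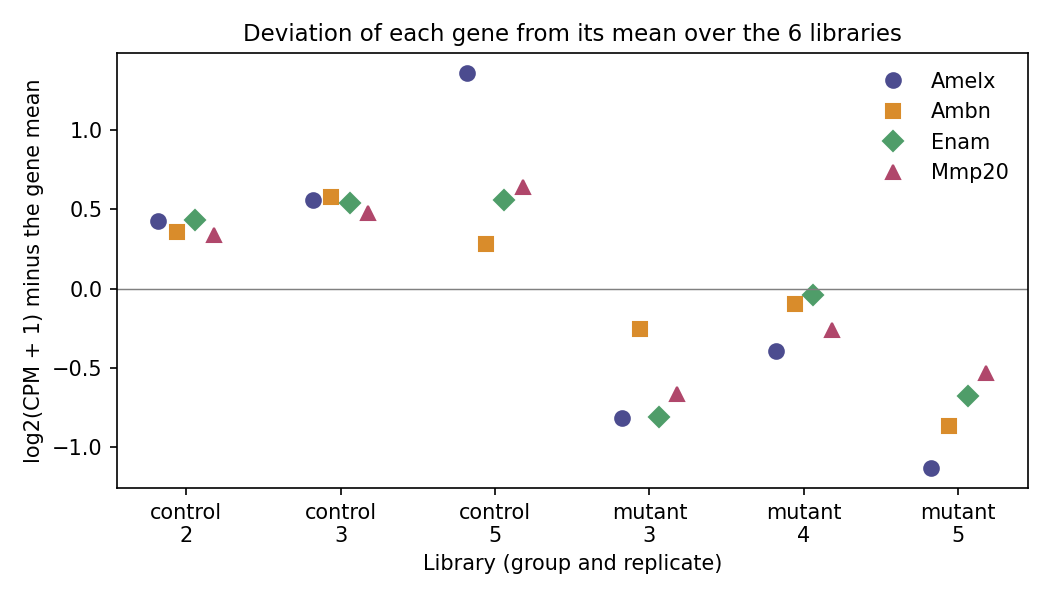
log2(CPM + 1) of each gene minus its mean over the 6 libraries, with libraries on the horizontal axis and a symbol for each gene. Controls lie above 0 and mutants below it, Amelx in control replicate 5 reaches 1.36, and Enam in mutant replicate 4 lies closest to 0 at -0.04.

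Genes that mark dental epithelium as a whole, the tissue that ameloblasts belong to, were compared beside the members. Of 16 such markers, 0 were called in either direction, 13 had negative log2 fold changes, and the median was -0.21. Of all 17305 genes tested, 2588 had an unadjusted edgeR p under 0.05. Among the markers these were Cdh1, Trp63, Krt17 and Esrp1, all lower (log2 fold changes -0.32, -0.56, -0.46 and -0.54). The most abundant, Krt5, Krt14, Perp and Dsp, had log2 fold changes of -0.23, 0.03, -0.41 and -0.18 and did not pass. The summed level of the list was 3137, 3931 and 4120 CPM in control replicates 2, 3 and 5 and 3863, 3324 and 2386 in mutant replicates 3, 4 and 5, and the groups overlapped. Mutant replicate 5, the lowest in this sum, was also the lowest in Amelx and Ambn. None of the 6 defining markers was at 0: Krt5, for example, stood at 1123 ± 138 and 954 ± 255 CPM, and Epcam at 17.3 ± 6.63 and 21.4 ± 8.33 (SD, n = 3).

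For each count of these markers, the libraries held 56.6, 50.4 and 67.1 counts of the 4 members in control replicates 2, 3 and 5 and 22.6, 33.6 and 28.1 in mutant replicates 3, 4 and 5. The groups did not overlap (log2 difference -1.05, exact two-sided permutation p = 0.1, the smallest possible). With Krt14 alone as the denominator the log2 difference was -1.29, and against the sum of 12 odontoblast markers it was -1.27. The odontoblast markers, genes of the dentin-forming cells beneath the enamel, had 0 called genes. Not all of them are particular to these cells, since Col1a1 is a collagen gene of dentin and bone. The log2 fold changes of this list had a median of -0.002. They were -0.03 for Col1a1, 0.02 for Col1a2, -0.13 for Dspp and 0.03 for Sparc, the most abundant. The markers with the smallest p-values had log2 fold changes of 0.30 (Dmp1), -0.25 (Nes), 0.32 (Sp7) and -0.20 (Phex). Their unadjusted edgeR p-values were 0.0228, 0.0382, 0.0553 and 0.103 in the same order. The summed level of the 12 odontoblast markers was 70645 to 74415 CPM in controls and 63595 to 75478 in mutants. Most of this sum was Col1a1, at 38957 ± 896 and 38109 ± 3511 CPM (SD, n = 3), so it does not stand for odontoblasts alone.

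**Figure D4:**
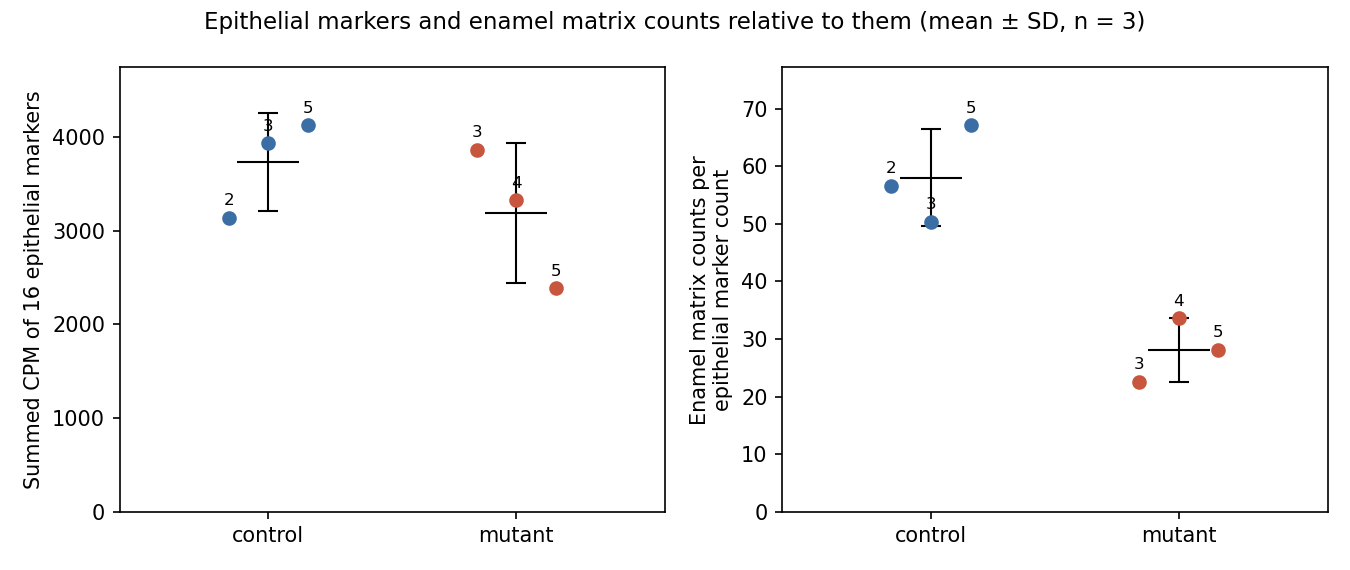
Left, summed CPM of 16 dental epithelium markers, and right, counts of the 4 enamel matrix genes per count of those markers, for each library with replicate numbers and bars for the mean ± SD of 3 libraries. The groups overlap on the left, while on the right the mutants (22.6 to 33.6) lie below the controls (50.4 to 67.1).

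Several lists of markers of other cell types had higher summed levels in every mutant than in any control. All 6 tested erythroid markers had positive log2 fold changes (median 1.07, 0 called), among them the globin genes Hba-a2 (1.20, edgeR adjusted p = 0.0815) and Hbb-bs (1.21, adjusted p = 0.0874), which may share reads with near-identical copies, with a summed level of 1422 to 1947 CPM in controls and 2366 to 5509 in mutants. All 7 macrophage markers were positive and 1, the lysosomal protein gene Cd68, was called (log2 fold change 0.59, edgeR adjusted p = 0.0498). Their summed level was 233 to 297 CPM in controls and 328 to 416 in mutants. Of 9 markers of dental mesenchyme and follicle, 7 had positive and 2 negative log2 fold changes. Called higher were 2, the matrix gene Postn (log2 fold change 0.73, edgeR adjusted p = 0.0262) and the homeobox gene Prrx1 (0.72, adjusted p = 0.0299). The summed level of the list was 5365 to 6473 CPM in controls and 6936 to 7238 in mutants. Of the 6 bone markers, 4 had positive and 2 negative log2 fold changes, and 0 were called. The smallest p was that of the osteocalcin copy Bglap2 (log2 fold change 0.71, edgeR adjusted p = 0.0919), whose reads may be shared with Bglap. Their sum was 1364 to 1821 CPM in controls and 2002 to 2393 in mutants, and most of it was Bglap, at 1104 ± 170 and 1573 ± 164 CPM (SD, n = 3). Of the 6 fits that leave out 1 library, Postn and Prrx1 were called in 1 and Cd68 in 0. Endothelial markers (6 tested, 0 called) summed to 223 to 261 CPM in controls and 265 to 276 in mutants. Osteoclast, Schwann cell and skeletal muscle markers had 0 called genes and groups that overlapped in their sums. The part of these cells in the difference of the members was not tested.

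Other genes linked to enamel formation, not all of them known to be needed for it, moved in several ways. Of 28 listed, 27 were tested, 7 were called lower, 0 higher and 20 did not pass, with a median log2 fold change of -0.20. Genes called in either direction made up 1.86% of all genes tested. Fam20a, which encodes a pseudokinase that aids phosphorylation of secreted enamel proteins, stood at 220, 204 and 254 CPM in control replicates 2, 3 and 5 and at 109, 124 and 108 in mutant replicates 3, 4 and 5. It was lower in all mutants (log2 fold change -0.99, SE 0.10, edgeR adjusted p = 0.0129), and among fits that leave out 1 library its call was lost without control replicate 2 (0.0506) and kept in the other 5. Acp4, an acid phosphatase gene of secretory ameloblasts, went from 341 ± 14.7 to 178 ± 43.4 CPM (SD, n = 3, log2 fold change -0.94, edgeR adjusted p = 0.0389).

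Called lower as well were 2 genes for transcriptional regulators of ameloblasts. Satb1, a chromatin organiser, went from 479 ± 67.9 to 249 ± 38.8 CPM (SD, n = 3, edgeR adjusted p = 0.0264), and Sp6, known as epiprofin, from 462 ± 62.6 to 297 ± 30.9 CPM (adjusted p = 0.0499). The other called genes encode cell surface proteins. They were the integrin gene Itgb6 (57.1 ± 13.2 and 28.5 ± 3.47 CPM, adjusted p = 0.0365), the hemidesmosomal collagen gene Col17a1 (475 ± 58.7 and 247 ± 48.2 CPM, adjusted p = 0.0345) and the receptor gene Relt (90.8 ± 4.62 and 59.0 ± 5.18 CPM, adjusted p = 0.0227). Of the 6 fits that leave out 1 library, Acp4, Relt and Satb1 were called in 2, Itgb6 and Col17a1 in 1 and Sp6 in 0. The homeobox genes Dlx3 (log2 fold change -0.12, edgeR adjusted p = 0.671) and Msx2 (-0.11, adjusted p = 0.532) did not pass.

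Odam, Amtn and Klk4, genes of the maturation stage, had positive log2 fold changes with wide spread, and none of the 3 was called. Odam, which encodes a protein of the ameloblast attachment, stood at 470, 2126 and 785 CPM in control replicates 2, 3 and 5 and at 4355, 1456 and 643 in mutant replicates 3, 4 and 5 (log2 fold change 0.93, SE 0.74, edgeR adjusted p = 0.624). The groups overlapped, and mutant replicate 3 was the highest library. Its title alone carries a prefix that the labels do not explain. Amtn (log2 fold change 0.79, adjusted p = 0.540) and Klk4, the protease gene of the maturation stage (0.42, adjusted p = 0.721), were also highest in mutant replicate 3, at 2707 and 606 CPM. The signs were mixed among transporter genes that enamel maturation is known to need, with 0.59 for the exchanger gene Slc24a4 (adjusted p = 0.614) and -0.77 for the citrate transporter gene Slc13a5 (adjusted p = 0.297).

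**Figure D5:**
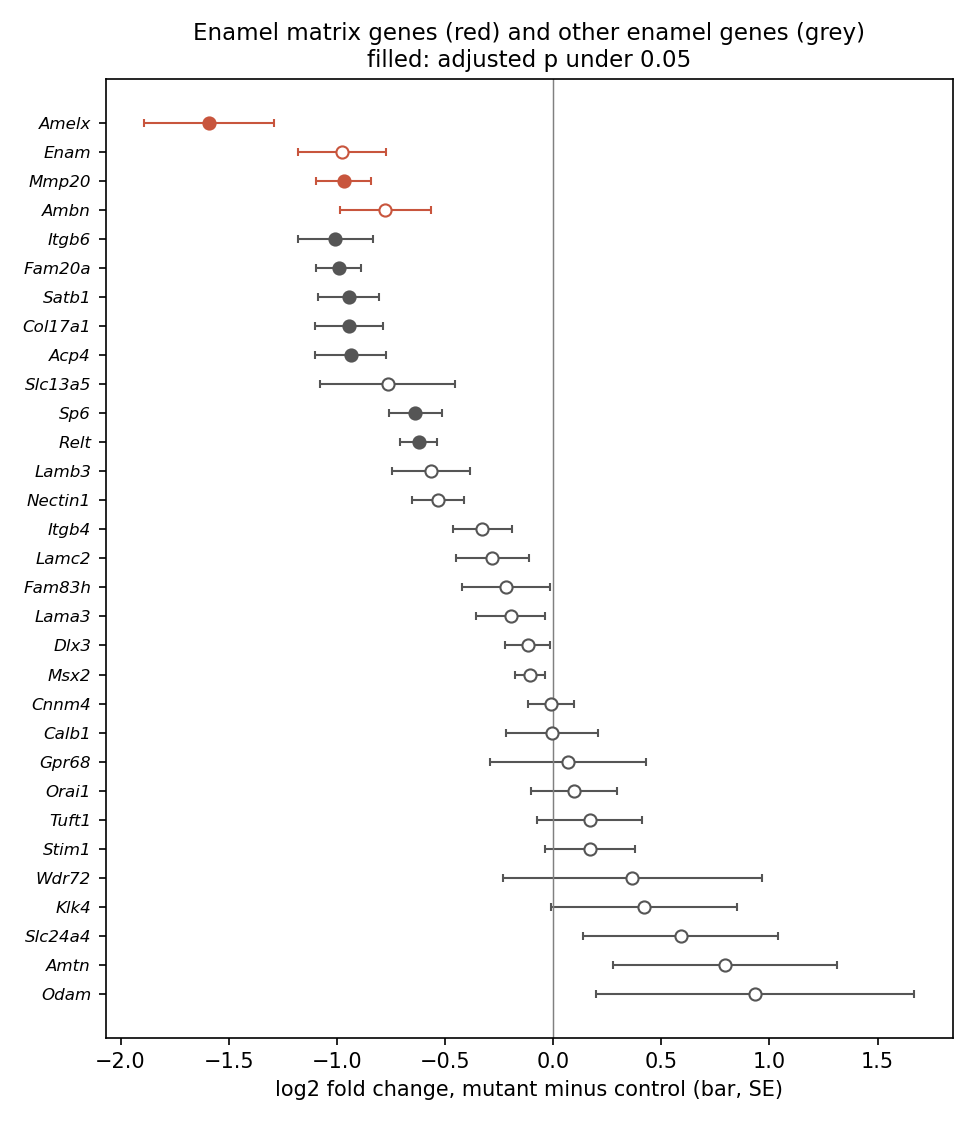
Log2 fold change, mutant minus control, with its SE, of the 4 members (red) and 27 other enamel formation genes (grey), with filled symbols for genes called at an adjusted p under 0.05. The members lie between -1.59 and -0.78, 7 other genes are called lower, and Odam, Amtn and Klk4 have positive values with long bars.

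None of the 6 tested neighbours of the members was called. Amelx lies within Arhgap6, a gene on the opposite strand, and none of its exons overlaps an exon of that gene. Arhgap6 had 187 to 331 counts per library, or 13.5 ± 2.26 CPM over the controls and 11.2 ± 2.62 over the mutants (SD, n = 3, edgeR adjusted p = 0.607). Amtn lies 70074 bases before Ambn on chromosome 5, and Odam lies 481933 bases before Amtn. Near Mmp20, the collagenase gene Mmp13 stood at 46.1 ± 20.2 and 83.7 ± 27.1 CPM (adjusted p = 0.274), while Mmp8 (1.17 ± 0.458 and 0.669 ± 0.0942 CPM, adjusted p = 0.352) and Mmp12 (0.390 ± 0.273 and 0.796 ± 0.607 CPM, adjusted p = 0.571) had low levels. The antisense gene AV064505 overlaps the span of Mmp20 but none of its exons and had 7 to 25 counts per library. No source used here says whether strand was used in the counting.

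Amelx, Ambn, Enam, Amtn and Odam belong to the secretory calcium-binding phosphoprotein family, together with dentin and bone members. A list of 11 genes held these and the related gene Sparcl1 (log2 fold change 0.21, edgeR adjusted p = 0.554). Of the list, 1 gene was called lower and 0 higher. The median log2 fold change over the list, Sparcl1 included, was 0.20. Dspp (log2 fold change -0.13, edgeR adjusted p = 0.761) and Dmp1 (0.30, adjusted p = 0.229), which encode dentin matrix proteins, did not pass. Neither did the bone matrix genes Ibsp (0.20, adjusted p = 0.588) and Spp1 (0.53, adjusted p = 0.381).

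Profiles over the 6 libraries were compared with those of all genes that averaged 5 CPM or more, by the root-mean-square difference of log2(CPM + 1) after each gene was centred on its own mean. Among 12105 other genes, the closest to Mmp20 were Satb1 (difference 0.05), Celsr1 (0.06) and F2r (0.08). The closest to Enam were Galnt12 (0.08), Entpd3 (0.11) and Gm8378 (0.13), and the closest to Ambn were Tmc7 (0.10), Acp4 (0.12) and Hap1 (0.12). Amelx had no neighbour as close, with Ppl (0.22), Ildr2 (0.23) and Slc38a3 (0.26) nearest. The difference was not scaled by spread, and the centred values of Amelx ranged most widely of the members (-1.13 to 1.36). A wide range by itself makes such differences larger. Ppl, the periplakin gene, stood at 21.3, 25.8 and 44.0 CPM in control replicates 2, 3 and 5 and at 11.9, 12.4 and 10.4 in mutant replicates 3, 4 and 5, and like Amelx was highest in control replicate 5. With the members ranked among 12108 genes, Mmp20 was the 7th closest to Enam, at 0.14, and the closest member to Amelx was Mmp20, at rank 28 (0.39). The closest member to Mmp20 was Enam, at rank 26, and the closest to Ambn was Enam, at rank 142 (0.27). Ranks depend on the gene they start from, and Amelx stood at rank 494 from Enam, 982 from Mmp20 and 8204 from Ambn. These distances describe likeness of levels and no test was made.

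The libraries also differed in Xist, the RNA that coats the inactive X chromosome of female cells, and Amelx is X-linked. Control replicate 3 and mutant replicates 3 and 5 had 799 to 1298 CPM of Xist, while control replicates 2 and 5 and mutant replicate 4 had 0.130 to 2.39. Among the Xist-high libraries Amelx stood at 119895 CPM in the control against 46247 and 37117 in the mutants. Among the Xist-low libraries it stood at 109351 and 209047 CPM in the controls against 62078 in the mutant. With the Xist class as a term, added after the data were seen, the log2 fold change of Amelx was -1.44 and its call was lost (edgeR adjusted p = 0.0907), while Mmp20 stayed called (-0.92, adjusted p = 0.0480).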

How the data were processed

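Single-end RNA sequencing (75 cycles) of 3 control and 3 mutant libraries was used, with groups from the genotype label and replicate numbers from the titles. The tools named in the submitters' processing notes include STAR 2.6.1d and Partek, with genome build mm10. No source used here gives the library kit or strand setting. The deposited expected counts per gene were not normalized and need not be whole (53.8% were whole within 0.001). Library totals ran from 20453247 to 24255352. The authors also deposited a normalized signal table, which was used for an alternative only.

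Expected counts were rounded, filtered with filterByExpr, scaled by TMM and tested with edgeR 4.0.16 (glmQLFit, glmQLFTest) in R 4.3.3. All 22287 genes matched GENCODE M21 by name, chromosome and start, from which ends and exon lengths were taken. Shares and ratios used exact permutation tests in scipy 1.17.1. Promoter windows were read from the RefSeq table, in which all 4 members had an entry.

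The members and the gene lists were chosen with earlier results of these data known. Named genes were drawn by a rule from the members, Arid1a, tested neighbours, called genes and those with the smallest p in each list, abundant epithelial and odontoblast markers, and the 3 genes closest in profile to each member. The scripts were tested on simulated data. Within a group, pairs of libraries differed by far more than counting noise (chi-square per degree of freedom 22.3 to 41.0). Alternatives were other scalings, filters and tools (DESeq2 1.42.0, limma 3.58.1), other denominators, a replicate block and each library left out in turn.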

Additional observations from a re-analysis of the deposited data

How the results depend on the processing

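The 4 members had negative log2 fold changes under each alternative tried. Calls across the transcriptome, 322 in the main analysis, numbered 520 with library totals alone, 874 with DESeq2 and 819 with the likelihood ratio test, and 58 with the Xist class as a term. Ambn passed with DESeq2 (-0.78) and the likelihood ratio test (-0.78), and Enam with DESeq2 (-0.98), the likelihood ratio test (-0.98) and limma-voom (-1.02). Amelx was not called with limma on the normalized table with a pseudocount of 1 (-1.55) or 10 (-1.55) or with the Xist class as a term (-1.44). The cause was not tested. With each library left out in turn, which leaves fewer samples, the calls ranged from 11 to 243, and the log2 fold changes ranged from -1.81 to -1.23 for Amelx, from -0.93 to -0.58 for Ambn, from -1.25 to -0.83 for Enam, from -1.09 to -0.88 for Mmp20 and from -0.71 to -0.64 for Arid1a. The uncalled log2 ratio differences ranged from -0.02 to 0.36 for Ambn to Enam, from 0.0025 to 0.37 for Ambn to Mmp20 and from -0.17 to 0.02 for Enam to Mmp20, with the sign reversed for Ambn to Enam without mutant replicate 3 (-0.0154) and for Enam to Mmp20 without mutant replicate 3 (0.0179) or mutant replicate 5 (0.0182). The labels speak of 3 pairs of samples without saying which libraries form a pair. The groups share the replicate numbers 3 and 5 only, and the deviations of same-numbered libraries correlated at 0.20 and -0.15 across genes, so the numbers were not taken as pairs. A replicate block takes up control replicate 2 and mutant replicate 4, which have no same-numbered partner. The difference then rests on replicates 3 and 5 of each group alone. In that fit 90 genes were called, Ambn (-0.99, edgeR adjusted p = 0.0262) and Enam (-1.29, adjusted p = 0.0116) passed, and Arid1a did not (-0.70, adjusted p = 0.0769). With 3 libraries a group, the exact tests could not reach a p of 0.05 for shares or ratios. Depth did not limit the members, each of which had at least 8432 counts in every library.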
